A study of Mus musculus with 11 samples.

Results

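Glycolysis splits glucose into pyruvate in the cytosol, and in macrophages its enzymes are abundant and are known to respond to oxygen and to inflammatory stimuli. Many of them are targets of hypoxia-inducible factor (HIF), a transcription factor whose alpha subunit is hydroxylated by prolyl hydroxylases when oxygen is present, bound by the VHL ubiquitin ligase and degraded, and which in low oxygen activates genes that carry its response element. The 32 genes described here, of 25121 in the deposited table, are the glycolytic enzymes and the transporters for glucose and lactate (21 genes) and the HIF subunit Hif1a, its regulators and its targets outside glycolysis (11 genes). They were picked by gene symbol, with earlier results of these data known, and all 32 were found. Aldoa is present under a second gene identifier (ENSMUSG00000114515), which held at most 0.504 CPM in any library and is not described further.

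RNA came from mouse bone marrow-derived macrophages, which are cells grown out of marrow precursors, held in the upper insert of a Transwell, with primary proximal tubule epithelial cells of the kidney in the chamber underneath. Every culture was treated for 72 h with TGF-β1 (transforming growth factor β1, a profibrotic cytokine, at 5 ng/mL), and 5 of the 11 libraries came from cultures that also received hemin (10 µM), the chloride of oxidised heme. The TGF-β1 group had 6 libraries (replicates 1 to 6) and the TGF-β1 plus hemin group 5 (replicates 2 to 6), and the design asks what hemin alters in macrophage RNA. There was no culture without TGF-β1, without epithelial cells or without both, so a direct action on macrophages and one through the epithelial cells cannot be told apart, and the labels used here give neither strain nor age. Nothing in the labels states that replicates of a group were separate animals or cultures, and p-values then reflect the spread between libraries, perhaps a technical one.

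All 8 macrophage markers were expressed, led by Lyz2 (lysozyme) at 3059 FPKM with TGF-β1 and 3544 FPKM with hemin. Of these 8, 3 were higher with hemin and 0 lower at the threshold given below (37.5%, against 14.2% of all tested genes). FPKM is the authors' value per transcript length and library size and is used to compare genes, whereas CPM (counts scaled to library size after TMM normalization) is used to compare libraries for 1 gene. Library totals ran from 65.5 to 71.5 M counts with TGF-β1 and from 66.7 to 96.6 M counts in the hemin group, which differed (exact permutation test, 2-sided, p = 0.0216). Of the 6 matched renal proximal tubule markers, 5 were under 1 FPKM. The sum of the 6 was 68.9 to 80.8 FPKM with TGF-β1 and 37.5 to 45.2 FPKM with hemin, and Gatm, an enzyme of creatine synthesis, held nearly all of it. The summed epithelial markers, led by Cdh1 (E-cadherin), ran from 8.10 to 15.2 FPKM with TGF-β1 and from 3.60 to 9.90 FPKM with hemin. The part of these lists in the differences below was not tested.

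With hemin 3 of the 32 genes were higher and 3 were lower, and the remaining 26 did not pass the threshold (edgeR quasi-likelihood test, Benjamini-Hochberg adjusted p under 0.05 over 15132 tested genes). The platelet-type phosphofructokinase Pfkp and the aldolases Aldoa and Aldoc rose. The inducible hexokinase Hk2, the muscle-type phosphofructokinase Pfkm and the collagen prolyl hydroxylase subunit P4ha1 fell. The 6 calls are 18.8% of the list, beside 14.2% of all tested genes called in either direction, 8.43% higher and 5.75% lower. No called member changed by 2-fold or more. Log2 fold changes, here always hemin over TGF-β1, were positive for 16 members and negative for 16. Their median was 0.0036 for the members and -0.0025 for all tested genes, and the median size regardless of sign was 0.14 and 0.15. At an unadjusted p under 0.05 there were 12 members. The share of all tested genes at that threshold was not computed, so this count is not read as a result about the members. In these bulk samples fewer cells of a type and less RNA per cell cannot be told apart.

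**Figure D1:**
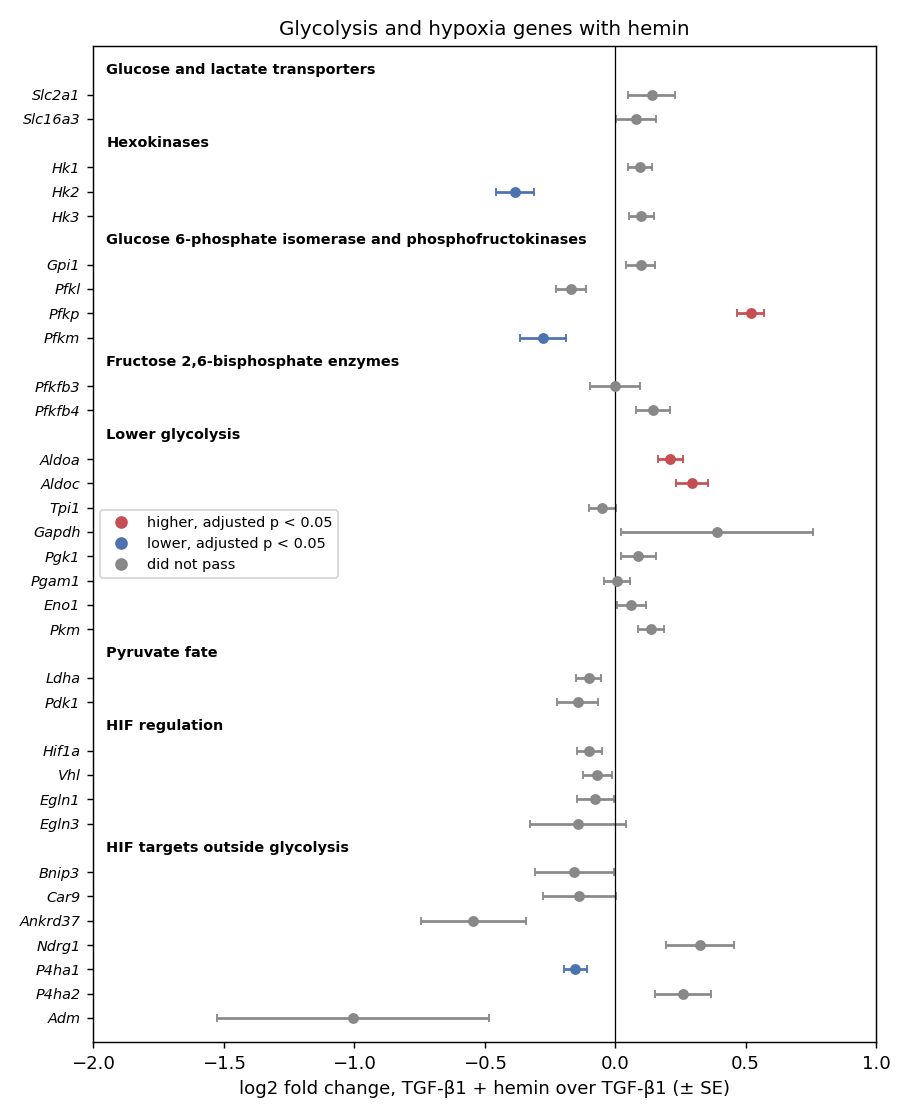
Log2 fold change (x axis, hemin over TGF-β1, edgeR, ± SE) of each of the 32 genes (y axis), grouped by role. Red points are the 3 genes that were higher and blue points the 3 that were lower at an adjusted p under 0.05, and grey points did not pass.

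In 4 members, Pfkp, Aldoa, Hk2 and P4ha1, no hemin library overlapped a TGF-β1 library in CPM, against 10.2% of all tested genes. Levels of the 32 genes spanned a wide range, from a mean of 0.532 FPKM for Adm to 1023 FPKM for the pyruvate kinase Pkm, with 8 genes at 100 FPKM or above and 9 under 10 FPKM. The summed share of raw counts taken by the 21 glycolytic enzymes and transporters was 2.17 ± 0.134% with TGF-β1 (SD, n = 6) and 2.13 ± 0.1097% with hemin (SD, n = 5). On that scale the difference was smaller than either SD. The share is of the raw library total, without TMM scaling, so it does not give the size or direction of a difference in summed CPM.

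The promoters of 6 members are shown because they belong to called genes at the upper steps of the pathway (Hk2, Pfkp), to the called HIF target (P4ha1) and to the HIF targets that varied most between libraries with a level above 1 FPKM (Bnip3, Egln3, Ankrd37). They are RefSeq sequences of build GRCm38.p6, the 250 bases before the annotated start, 5′ to 3′ on the gene's strand, in lower case. Capitals mark the core letters of the HIF response element, searched as ACGTG and GCGTG on both strands, so that the reverse strand reads CACGT or CACGC. Matches can overlap, as they do in CACGTG and CACGCGTG. 
Hk2, chr6:82774455-82774704, minus strand: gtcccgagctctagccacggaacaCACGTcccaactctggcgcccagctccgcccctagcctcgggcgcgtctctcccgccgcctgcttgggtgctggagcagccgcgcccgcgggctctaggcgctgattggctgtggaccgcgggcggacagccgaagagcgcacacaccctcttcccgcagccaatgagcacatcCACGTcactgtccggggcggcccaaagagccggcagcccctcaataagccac
Pfkp, chr13:6648772-6649021, minus strand: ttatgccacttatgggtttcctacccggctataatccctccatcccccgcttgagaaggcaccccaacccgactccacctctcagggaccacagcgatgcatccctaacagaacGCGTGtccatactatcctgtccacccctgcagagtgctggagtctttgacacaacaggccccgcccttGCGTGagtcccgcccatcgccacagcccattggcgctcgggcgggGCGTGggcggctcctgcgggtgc
P4ha1, chr10:59323046-59323295, plus strand: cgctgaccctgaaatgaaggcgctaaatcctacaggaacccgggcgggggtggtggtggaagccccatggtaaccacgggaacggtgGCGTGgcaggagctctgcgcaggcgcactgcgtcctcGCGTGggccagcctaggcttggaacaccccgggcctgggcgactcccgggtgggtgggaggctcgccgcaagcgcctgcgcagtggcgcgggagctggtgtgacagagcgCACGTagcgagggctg
Bnip3, chr7:138909507-138909756, minus strand: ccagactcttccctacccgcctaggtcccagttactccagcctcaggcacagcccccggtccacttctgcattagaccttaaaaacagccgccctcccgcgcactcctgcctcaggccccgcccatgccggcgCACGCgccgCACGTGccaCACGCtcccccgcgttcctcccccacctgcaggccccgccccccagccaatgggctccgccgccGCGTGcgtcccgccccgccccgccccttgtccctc
Egln3, chr12:54203875-54204124, minus strand: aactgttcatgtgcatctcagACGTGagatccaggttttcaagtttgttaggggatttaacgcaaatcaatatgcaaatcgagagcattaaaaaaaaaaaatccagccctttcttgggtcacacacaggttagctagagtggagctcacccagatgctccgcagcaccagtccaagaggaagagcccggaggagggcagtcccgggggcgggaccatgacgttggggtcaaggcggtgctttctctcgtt
Ankrd37, chr8:45999851-46000100, minus strand: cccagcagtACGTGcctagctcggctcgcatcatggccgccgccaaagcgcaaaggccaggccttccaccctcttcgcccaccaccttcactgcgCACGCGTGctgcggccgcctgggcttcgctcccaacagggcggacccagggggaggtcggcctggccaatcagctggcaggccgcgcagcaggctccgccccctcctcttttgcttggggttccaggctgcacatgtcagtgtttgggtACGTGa
The Bnip3 window held 5 matches, Ankrd37 4, Pfkp 3, P4ha1 3, Hk2 2 and Egln3 1. In Hk2 the matches began 226 and 52 bases before the start, and the single one in Egln3 229 bases before it. Among the 44 windows of the 31 members with an entry, 36 (81.8%) held the letters. This compares with 38.6% of 32851 windows of the same length over all genes and with 54.7% of 13206 windows of tested genes. Ndrg1 had no entry. The genes were picked partly as known HIF targets, so the share describes the list, and a match is only a match of letters.

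Both transporters were expressed without a difference that passed. Slc16a3, the lactate exporter and the more abundant of the pair, ranged from 362 to 507 CPM with TGF-β1 (median 457) and was 475, 512, 425, 509 and 464 CPM in hemin replicates 2 to 6. The groups overlapped, though TGF-β1 replicate 3, at 362 CPM, lay below every hemin library. The log2 fold change was 0.08 ± 0.08 (SE, edgeR adjusted p = 0.591). Slc2a1, the basal glucose importer, was 153 ± 22.2 CPM (SD, n = 6) and 168 ± 15.4 CPM (SD, n = 5), with an edgeR log2 fold change of 0.14 ± 0.09 (adjusted p = 0.360).

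Hexokinases phosphorylate glucose on entry and so trap it in the cell. Hk2 (ENSMUSG00000000628, chr6:82702006-82751435, minus strand, GRCm39), the inducible and mitochondria-binding form, lay between 83.2 and 108 CPM with TGF-β1 (median 87.3). In hemin replicates 2 to 6 it was 67.1, 79.5, 63.5, 65.3 and 71.9 CPM. All 5 hemin libraries were below the lowest TGF-β1 library. The mean fell from 90.6 ± 9.22 CPM to 69.5 ± 6.43 CPM, 1.30-fold lower (edgeR log2 fold change -0.38 ± 0.07 SE, adjusted p = 0.00161). It was called in all 21 alternatives, with log2 fold changes of -0.49 to -0.32.

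The other hexokinases did not pass. Hk3, a myeloid-enriched form and the most abundant here by FPKM, was at 223 to 241 CPM with TGF-β1 (median 229) and at 265, 223, 258, 245 and 245 CPM in hemin replicates 2 to 6. These ranges overlapped through hemin replicate 3 alone (edgeR log2 fold change 0.10 ± 0.05, adjusted p = 0.197). Hk1, the housekeeping form, was 216 ± 12.1 CPM and 230.3 ± 6.76 CPM (0.09 ± 0.05, edgeR adjusted p = 0.212). On the FPKM scale their means were 60.4 and 60.03 for Hk3 and 24.4 and 24.2 for Hk1.

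As a share of summed hexokinase FPKM, Hk2 held 14.7 ± 1.39% with TGF-β1 (13.3 to 17.3%) and 11.0 ± 1.28% with hemin (9.90 to 13.1%), without overlap between the groups. Hk3 held 60.8 ± 1.55% and 63.4 ± 2.50%, and Hk1 24.5 ± 0.972% and 25.6 ± 1.38%. Hk3 was thus the leading hexokinase transcript in every library. These shares carry no test of their own.

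Among the enzymes from glucose 6-phosphate to fructose bisphosphate the phosphofructokinase genes moved in different directions. Phosphofructokinase makes fructose 1,6-bisphosphate, the committed step, as tetramers of liver (Pfkl), platelet (Pfkp) and muscle (Pfkm) subunits. Pfkp (ENSMUSG00000021196, chr13:6629804-6698813, minus strand, GRCm39) lay between 77.2 and 93.2 CPM with TGF-β1 (median 83.8) and was 119.0, 119.9, 129.8, 121.8 and 121.4 CPM in hemin replicates 2 to 6. Every hemin library was above every TGF-β1 library. The mean rose from 85.3 ± 6.25 to 122 ± 4.29 CPM, 1.43-fold (edgeR log2 fold change 0.52 ± 0.05 SE, adjusted p = 3.11e-06). It was the member with the smallest p and passed in all 21 alternatives, at log2 fold changes of 0.36 to 0.55.

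Pfkm (ENSMUSG00000033065, chr15:97990470-98030328, plus strand, GRCm39) was much lower in level, from 13.9 to 16.8 CPM with TGF-β1 (median 14.99) and 14.9, 12.8, 11.7, 12.4 and 11.0 CPM in hemin replicates 2 to 6. Hemin replicate 2 lay inside the TGF-β1 range and the other 4 below it. The fall from 15.2 ± 1.14 to 12.6 ± 1.45 CPM, 1.21-fold, was at the edge of the threshold (edgeR log2 fold change -0.28 ± 0.09, adjusted p = 0.0499) and passed in 8 of 20 alternatives. It was lost when TGF-β1 replicate 1, 3, 4 or 6 or hemin replicate 3, 4, 5 or 6 was left out, at edgeR adjusted p-values of 0.0643 to 0.131. Pfkl, the most abundant subunit, was 344 ± 23.4 and 305 ± 20.3 CPM, with an edgeR log2 fold change of -0.17 ± 0.06 that did not pass (adjusted p = 0.0600). It passed in 9 of 21 alternatives, among them DESeq2 (-0.18, adjusted p = 0.0158) and edgeR without TGF-β1 replicate 3 (-0.20, adjusted p = 0.0172), hemin replicate 3 (-0.19, adjusted p = 0.0448) or hemin replicate 5 (-0.20, adjusted p = 0.0497).

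Both Pfkp and Pfkm overlap a gene on the opposite strand. The library preparation marked the second strand with uracil, but no source used here gives the strand setting of the counting, so reads of the pairs may have been mixed. The overlapping neighbour of Pfkp, the mitochondrial protease gene Pitrm1, was 64.6 ± 4.20 and 63.4 ± 3.54 CPM (edgeR adjusted p = 0.837). That of Pfkm, the SUMO protease gene Senp1, was 35.3 ± 3.19 and 31.2 ± 1.10 CPM, with a log2 fold change of -0.18 (edgeR adjusted p = 0.0929).

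Within summed phosphofructokinase FPKM the share of Pfkp was 10.2 ± 0.290% with TGF-β1 (9.79 to 10.5%) and 15.6 ± 1.19% with hemin (14.5 to 17.5%). The share of Pfkl was 82.5 ± 0.767% and 78.0 ± 1.46%, and that of Pfkm 7.31 ± 0.581% and 6.42 ± 0.783%. The groups did not overlap for Pfkp and Pfkl and overlapped for Pfkm. Computed from CPM, which is not corrected for length, the Pfkp share was 19.2 and 27.8%, again without overlap. Gpi1, the isomerase between hexokinase and phosphofructokinase, ran from 1137 to 1362 CPM with TGF-β1 (median 1299) and was 1308, 1461, 1279, 1461 and 1299 CPM in hemin replicates 2 to 6, with overlapping groups (edgeR log2 fold change 0.10 ± 0.06, adjusted p = 0.306).

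**Figure D2:**
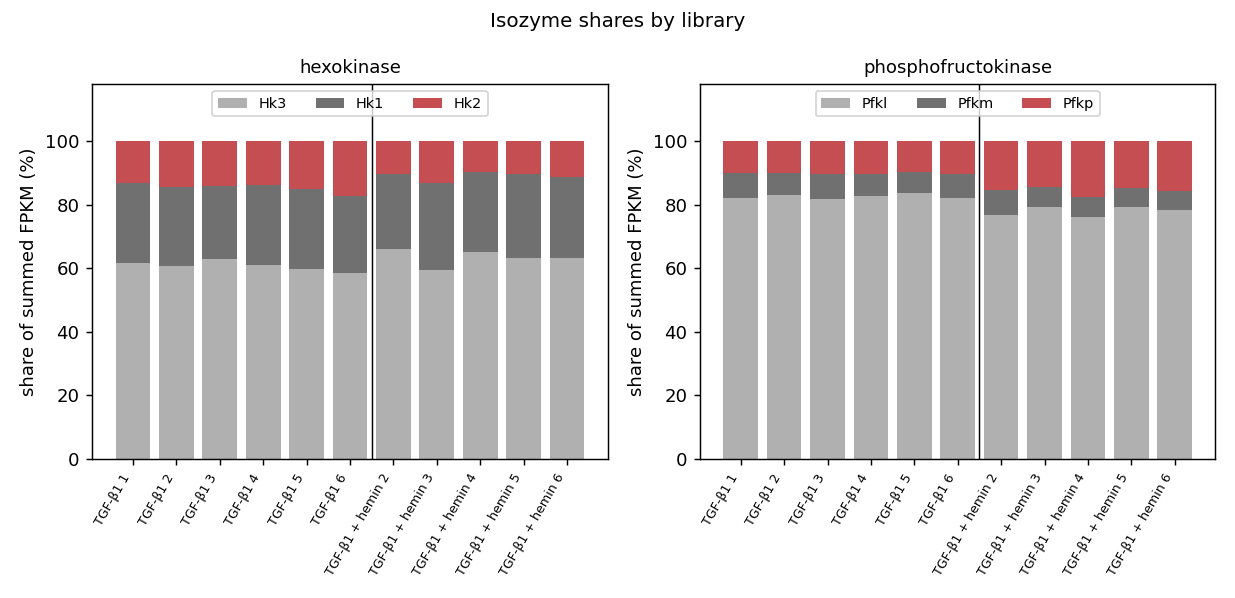
Share of summed FPKM (y axis, percent) held by each hexokinase (left) and phosphofructokinase gene (right) in each library (x axis). The red segment is Hk2 on the left, smaller in the 5 hemin libraries (9.90 to 13.1%) than in the 6 TGF-β1 libraries (13.3 to 17.3%), and Pfkp on the right, larger with hemin (14.5 to 17.5% against 9.79 to 10.5%).

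Pfkfb3 and Pfkfb4 make and degrade fructose 2,6-bisphosphate, an allosteric activator of phosphofructokinase. Neither passed. Pfkfb4, slightly the more abundant by FPKM, was at 26.1 to 30.2 CPM with TGF-β1 (median 28.4) and at 30.3, 29.1, 30.2, 35.3 and 31.6 CPM in hemin replicates 2 to 6 (edgeR log2 fold change 0.14 ± 0.06, adjusted p = 0.160). Hemin replicate 5 stood above the other 10 libraries. Pfkfb3 had means of 41.2 ± 5.36 and 41.1 ± 5.94 CPM, and its 95% interval ran from -0.19 to 0.19 on the log2 scale (edgeR adjusted p = 0.997).

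In the lower pathway 2 of 8 genes rose, against 8.43% of all tested genes, and none fell, and both risers were aldolases, which split fructose bisphosphate into triose phosphates. Aldoa (ENSMUSG00000030695, chr7:126394406-126399923, minus strand, GRCm39) ranged from 2591 to 2991 CPM with TGF-β1 (median 2824) and was 3165, 3417, 3223, 3452 and 3129 CPM in hemin replicates 2 to 6. All hemin libraries were above all TGF-β1 libraries. The rise, from 2829 ± 137 to 3277 ± 148 CPM, was 1.16-fold (edgeR log2 fold change 0.21 ± 0.05, adjusted p = 0.00659) and was lost on the FPKM scale (limma on log2(FPKM + 1), 0.10, adjusted p = 0.195).

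Aldoc (ENSMUSG00000017390, chr11:78213794-78218607, plus strand, GRCm39), best known as the brain aldolase, ranged from 52.0 to 68.1 CPM with TGF-β1 (median 55.7) and was 67.3, 71.2, 70.3, 71.2 and 67.8 CPM in hemin replicates 2 to 6. TGF-β1 replicate 6, at 68.1 CPM, lay among the hemin libraries, and the other 5 TGF-β1 libraries were at or below 56.4 CPM. The mean rose from 56.7 ± 5.88 to 69.5 ± 1.899 CPM, 1.23-fold (edgeR log2 fold change 0.29 ± 0.06, adjusted p = 0.00383), and this was also lost on the FPKM scale (limma, 0.18, adjusted p = 0.0755). By FPKM Aldoc was 1.76 ± 0.152% of the summed aldolases with TGF-β1 and 1.86 ± 0.0434% with hemin.

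**Figure D3:**
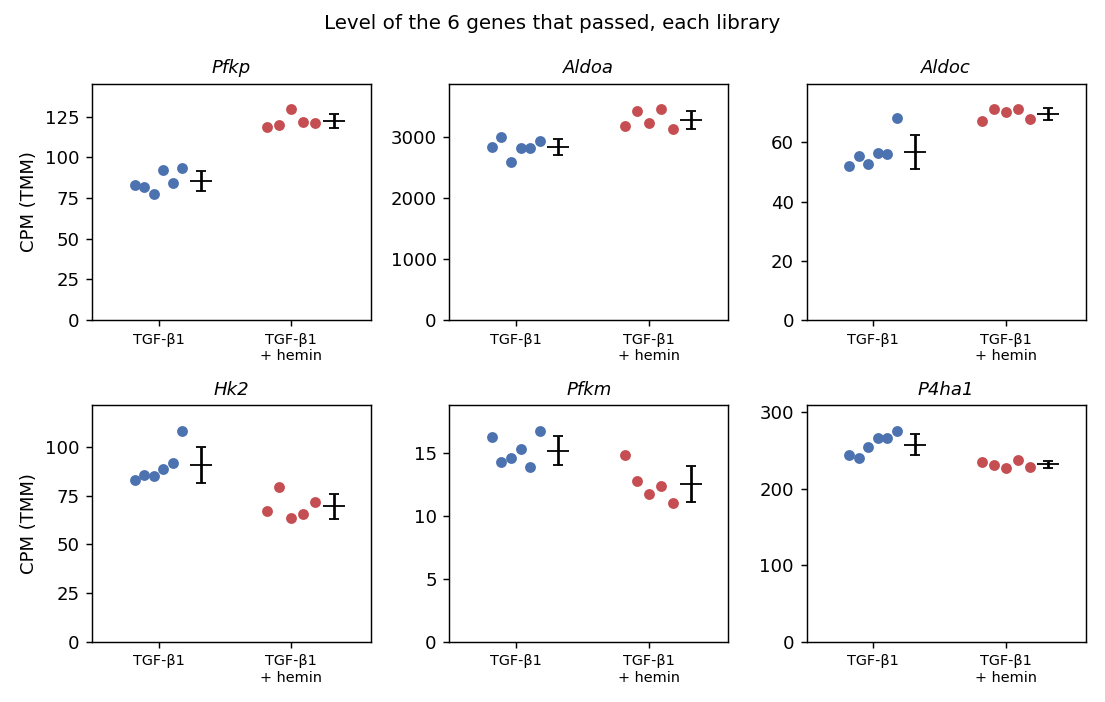
Level in CPM (y axis, TMM-normalized, starting at 0) of the 6 genes that passed, 1 point per library, with the mean and SD beside each group (6 TGF-β1 libraries in blue, 5 TGF-β1 plus hemin libraries in red). The groups are apart for Pfkp, Aldoa, Hk2 and P4ha1, and overlap through TGF-β1 replicate 6 for Aldoc (68.1 CPM) and through hemin replicate 2 for Pfkm (14.9 CPM).

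The other 6 genes of the lower pathway did not pass. Pkm, pyruvate kinase and the most abundant member, ranged from 4824 to 5545 CPM with TGF-β1 (median 5308) and was 5767, 5445, 5543, 6225 and 5911 CPM in hemin replicates 2 to 6. Hemin replicates 2, 5 and 6 were above every TGF-β1 library and replicates 3 and 4 were inside their range (edgeR log2 fold change 0.14 ± 0.05, adjusted p = 0.0813). It passed with DESeq2 (0.13, adjusted p = 0.0291) and in edgeR without hemin replicate 3 (0.16, adjusted p = 0.0466). Triose phosphate isomerase (Tpi1), phosphoglycerate kinase (Pgk1), phosphoglycerate mutase (Pgam1) and enolase (Eno1) had edgeR log2 fold changes of -0.05, 0.09, 0.01 and 0.06, with SEs of 0.05 to 0.07. Pgk1, Pgam1 and Eno1 have near-identical copies whose reads the counting may have split: Eno1b at 169.9 and 173 CPM, Pgam1-ps2 at 66.0 and 67.1 CPM, and Pgk1-rs7 at 20.6 and 20.6 CPM in the TGF-β1 and hemin groups.

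Gapdh, the dehydrogenase between Tpi1 and Pgk1 and a common reference gene, varied between libraries far more than its neighbours in the pathway. With TGF-β1 it was 409, 339, 63.6, 237, 85.9 and 226 CPM in replicates 1 to 6. With hemin it was 254, 230.5, 456, 302 and 245 CPM in replicates 2 to 6. The highest library was 7.16 times the lowest, against 1.19 times for Tpi1 and 1.34 times for Pgk1, and the low values of TGF-β1 replicates 3 and 5 had no counterpart with hemin. The group means of 227 ± 136 and 297 ± 92.5 CPM did not differ beyond this spread (edgeR log2 fold change 0.39 ± 0.37, adjusted p = 0.578). The summed level of 4 annotated Gapdh copies (Gapdh-ps15, Gapdh-ps16, Gapdhrt and Gapdhrt2) stayed between 208 and 260.2 CPM in all 11 libraries. In TGF-β1 replicates 1 and 3, where Gapdh was 409 and 63.6 CPM, the copies summed to 231 and 212 CPM. Reads of near-identical sequence may have been divided among these genes, so the level of Gapdh itself is uncertain. The part of such division in the spread of Gapdh was not tested.

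**Figure D4:**
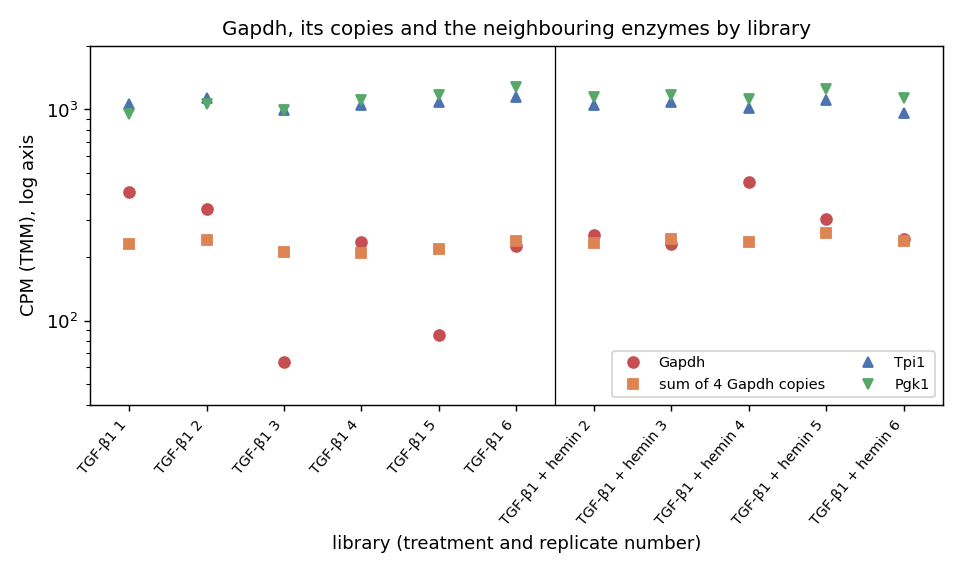
CPM on a log axis (y axis) in each library (x axis) for Gapdh, the sum of its 4 copies, Tpi1 and Pgk1. Gapdh runs from 63.6 to 456 CPM, while the sum of the copies stays between 208 and 260.2 CPM and the neighbouring enzymes between 954 and 1277 CPM.

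Pyruvate can be reduced to lactate or oxidised in mitochondria. Ldha, the main lactate dehydrogenase subunit, ranged from 2113 to 2421 CPM with TGF-β1 (median 2283) and was 2153, 2134, 2053, 2265 and 2044 CPM in hemin replicates 2 to 6. Of the hemin libraries 3 lay inside the TGF-β1 range and 2 below it, and the difference did not pass (edgeR log2 fold change -0.10 ± 0.05, adjusted p = 0.201). It passed on the FPKM scale (limma on log2(FPKM + 1), -0.21, adjusted p = 0.0138), where the median of all genes also shifted by -0.06. Pdk1, a kinase that inhibits pyruvate dehydrogenase, was 108 ± 13.1 and 98.2 ± 8.76 CPM (edgeR log2 fold change -0.14 ± 0.08, adjusted p = 0.281).

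None of the 4 genes of HIF regulation passed, and their log2 fold changes, -0.07 to -0.14, had a median of -0.09. Hif1a, the oxygen-regulated subunit, ranged from 166 to 189 CPM with TGF-β1 (median 180.1) and was 177, 167, 167, 166 and 157 CPM in hemin replicates 2 to 6. Its groups overlapped in 4 of the 5 hemin libraries (edgeR log2 fold change -0.10 ± 0.05, adjusted p = 0.206). It passed on the FPKM scale (limma on log2(FPKM + 1), -0.20, adjusted p = 0.0205). Vhl, the substrate receptor that binds hydroxylated HIF, was 47.7 ± 2.28 and 45.5 ± 3.25 CPM. The prolyl hydroxylase Egln1, the main oxygen sensor for HIF, was 97.5 ± 11.5 and 92.6 ± 4.94 CPM. Egln3, a prolyl hydroxylase that is itself a HIF target, ranged from 31.5 to 77.1 CPM with TGF-β1 (median 55.5) and was 42.1, 64.6, 43.0, 52.4 and 45.2 CPM in hemin replicates 2 to 6. The hemin values fell inside the TGF-β1 range (edgeR log2 fold change -0.14 ± 0.18, adjusted p = 0.710).

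Of the 7 HIF targets outside glycolysis 1 fell and none rose at the threshold, beside 5.75% of all tested genes lower and 8.43% higher. P4ha1 (ENSMUSG00000019916, chr10:59159118-59209126, plus strand, GRCm39), a catalytic subunit of the enzyme that hydroxylates proline in collagen, ranged from 239.7 to 276 CPM with TGF-β1 (median 260.0) and was 235, 231, 227, 237 and 229 CPM in hemin replicates 2 to 6. The highest hemin library was just below the lowest TGF-β1 library. The mean fell from 258 ± 14.2 to 232 ± 4.27 CPM, 1.11-fold (edgeR log2 fold change -0.15 ± 0.04, adjusted p = 0.0317), and the call held in 11 of 21 alternatives. It was lost when TGF-β1 replicate 4, 5 or 6 or hemin replicate 2, 3, 4 or 6 was left out, at edgeR adjusted p-values of 0.0539 to 0.0774.

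P4ha2, the alternative catalytic subunit, had a positive log2 fold change. It ranged from 33.3 to 59.8 CPM with TGF-β1 (median 41.0) and was 53.0, 52.1, 51.0, 54.3 and 50.9 CPM in hemin replicates 2 to 6. The 5 hemin libraries were above all TGF-β1 libraries except replicate 6. The difference did not pass with that library (edgeR log2 fold change 0.26 ± 0.11, adjusted p = 0.129) and passed without it (0.37, adjusted p = 0.00291). P4ha2 made up 9.98 ± 1.49% of the summed FPKM of the pair with TGF-β1 (7.94 to 12.5%) and 12.9 ± 0.109% with hemin (12.8 to 13.1%), without overlap.

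Ndrg1, a stress-responsive gene, was likewise higher in mean with hemin, at 19.4 ± 2.08 CPM against 15.5 ± 3.22 CPM. It did not pass with all libraries (edgeR log2 fold change 0.33 ± 0.13, adjusted p = 0.115) and passed without TGF-β1 replicate 6 (0.40, adjusted p = 0.0477). Ankrd37, an ankyrin repeat gene and known HIF target, was 3.36 to 6.94 CPM with TGF-β1 (median 4.15) and 3.43, 3.83, 2.80, 3.52 and 2.25 CPM in hemin replicates 2 to 6. The hemin values were in or below the lower part of the TGF-β1 range (edgeR log2 fold change -0.54 ± 0.20, adjusted p = 0.0892). It passed with DESeq2 (-0.55, adjusted p = 0.0485) and with limma on log2(FPKM + 1) and log2(FPKM + 0.1) (adjusted p = 0.0447 and 0.0380). Its opposite-strand neighbour Ufsp2, a UFM1-specific protease gene, had a log2 fold change of 0.12 (edgeR adjusted p = 0.231).

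Bnip3, a mitophagy receptor, ranged from 44.2 to 91.5 CPM with TGF-β1 (median 59.0) and was 50.5, 70.1, 47.2, 59.1 and 55.2 CPM in hemin replicates 2 to 6. All hemin values lay inside the TGF-β1 range (edgeR log2 fold change -0.16 ± 0.15, adjusted p = 0.597). Car9, a carbonic anhydrase at the cell surface, was 5.86 ± 1.04 and 5.32 ± 0.707 CPM. Adm, the precursor of the vasodilator adrenomedullin, was the lowest member, at 1.20 ± 0.967 and 0.592 ± 0.327 CPM, and its 95% interval ran from -2.02 to 0.01 on the log2 scale (edgeR adjusted p = 0.243).

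The 32 genes also varied together among libraries of the same treatment. TGF-β1 replicate 6 was the highest of the 6 for 23 of 32 members (71.9%), against 15.6% of all tested genes. Replicate 3 was the lowest for 18 of 32 (56.3%), against 14.6%. Replicate 6 was highest in 9 of the 11 genes of HIF regulation and HIF targets and in 14 of the 21 glycolytic enzymes and transporters. Its level relative to the mean of the other 5 had a median of 1.121 over the members and 1.32 over the 11 HIF genes, and 0.992 over all tested genes. The ratios reached 3.62 for Adm, 1.68 for Ankrd37, 1.602 for Bnip3 and 1.54 for Egln3. Of 42 other HIF targets that were tested, 23 (54.8%) were also highest in replicate 6. On the deposited FPKM scale, replicate 6 was highest for 22 of 32 members (68.8%), against 18.8% of all tested genes.

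Among the hemin libraries, replicate 5 was highest for 14 (43.8%) and replicate 3 for 12 (37.5%) of the 32, against 19.8% and 22.9% of all tested genes. TGF-β1 replicates 6 and 3 also had the highest and lowest summed fibroblast markers of their group, at 94.4 and 38.9 FPKM. The hemin libraries ran from 30.3 FPKM in replicate 4 to 54.2 FPKM in replicate 2. TGF-β1 replicate 6 had the highest summed macrophage markers too, 5934 FPKM within a group range that began at 3972 FPKM in replicate 2. Summed erythroid markers, led by hemoglobin genes, were highest of their group in TGF-β1 replicate 6 (94.2 FPKM, from 0.123 FPKM) and in hemin replicate 5 (255.7 FPKM, from 0.263 FPKM). In TGF-β1 replicate 3, the lowest library for most members, they were 28.6 FPKM, exceeded only by replicate 6 in that group. Hemin replicate 3, highest for 12 members, had the lowest erythroid sum of its group. Summed megakaryocyte and mast cell markers, led by the platelet chemokine Ppbp, were 0.957 to 1.73 FPKM with TGF-β1 and 7.37 to 9.95 FPKM with hemin. The part of these markers in the pattern and in the differences between groups was not tested. Without TGF-β1 replicate 6, 5 members were higher with hemin (Pfkp, Aldoa, Aldoc, Ndrg1 and P4ha2) and 1 was lower (Hk2). Over all genes that setting gave 1160 higher and 808 lower, beside 1276 and 870 with all 11 libraries.

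**Figure D5:**
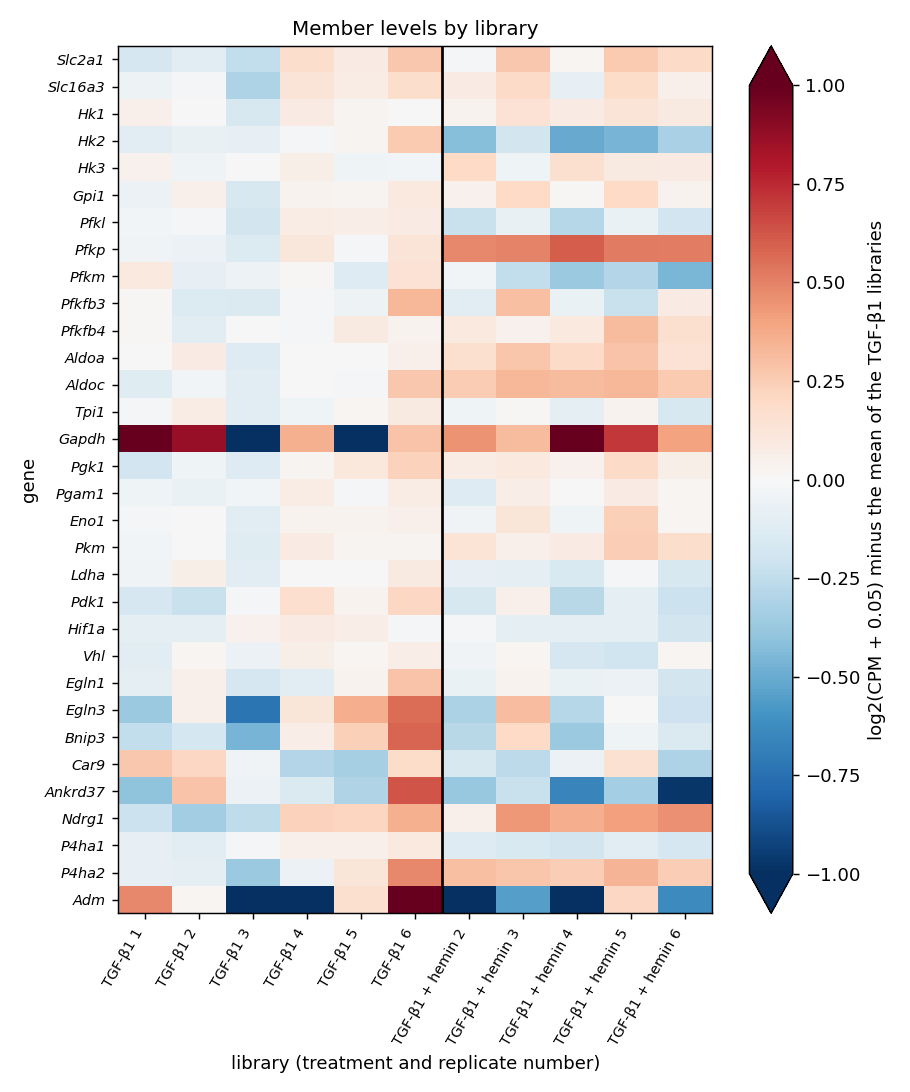
Level of each of the 32 genes (rows) in each library (columns), as log2(CPM + 0.05) minus the mean of the TGF-β1 libraries, with the color scale ending at -1 and 1. TGF-β1 replicate 6 is the highest of its group in 23 rows and replicate 3 the lowest in 18. Hk2, Pfkp, Aldoa and P4ha1 each separate the treatments across all libraries.

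Genes of neighbouring pathways, taken from textbook lists, had calls in both directions, to be read beside the 14.2% of all tested genes called, 8.43% higher and 5.75% lower. Of 21 other glycolytic isozymes and regulators 2 rose and 2 fell (19.05%, median log2 fold change 0.00). G6pc3, a ubiquitous glucose 6-phosphatase, rose from 47.1 ± 4.00 to 55.7 ± 1.62 CPM (edgeR adjusted p = 0.00871), a call lost on the FPKM scale (limma on log2(FPKM + 1), adjusted p = 0.0891) and without the 2 deepest hemin libraries (edgeR, 0.0699). Ldhb, the other main lactate dehydrogenase subunit, was lower with hemin, at 17.4 ± 1.78 CPM against 22.3 ± 2.40 CPM (edgeR adjusted p = 0.0129), and the lactate transporter Slc16a1 fell from 36.5 ± 2.16 to 30.8 ± 2.95 CPM (edgeR adjusted p = 0.0229). The Slc16a1 call was lost without TGF-β1 replicate 3 or hemin replicate 3, 4 or 5 (edgeR adjusted p = 0.0506 to 0.0655). The count of higher genes on this list was 1 without TGF-β1 replicate 1, 2, 3 or 6 or hemin replicate 3, 4 or 6, and 0 with limma on FPKM. Without the 2 deepest hemin libraries the Ldhb and Slc16a1 calls were lost as well (edgeR adjusted p = 0.118 and 0.0820). Using the replicate number as a block also took both calls away (edgeR adjusted p = 0.0556 and 0.0749).

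Of 14 genes of pyruvate entry into mitochondria 2 rose and 2 fell (28.6%, against 14.2% of all tested genes, median log2 fold change 0.05). The lower count was 1 without TGF-β1 replicate 1, 5 or 6 or hemin replicate 2, 5 or 6, each of which took away the call of the kinase gene Pdk4 (edgeR adjusted p = 0.0520 to 0.0842), which was at 0.820 ± 0.408 and 0.179 ± 0.118 CPM and is named after its values were seen. Pyruvate carboxylase (Pcx) rose 1.604-fold, from 10.6 ± 0.864 to 17.01 ± 2.61 CPM, without overlap (edgeR adjusted p = 0.000244). The pyruvate carrier subunit Mpc1 rose by 0.35 on the log2 scale, and the pyruvate dehydrogenase subunit Pdha1 fell by 0.17 (edgeR adjusted p = 0.0168 and 0.00860). The Mpc1 call was lost on the FPKM scale (limma on log2(FPKM + 1), adjusted p = 0.0642), and both calls were lost without the 2 deepest hemin libraries (edgeR adjusted p = 0.0592 and 0.0666). With the replicate number as a block the Mpc1 and Pdha1 calls were lost too (edgeR adjusted p = 0.101 and 0.0553), and the lower count of the list was 0.

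Of 16 tested genes of the HIF subunits and the oxygen-sensing machinery outside the 32, 1 rose and 2 fell (18.8%, against 14.2% of all tested genes, median log2 fold change 0.03). Epas1, which encodes the HIF-2 alpha subunit, fell from 27.4 ± 2.05 to 19.99 ± 1.58 CPM, 1.37-fold and without overlap (edgeR adjusted p = 0.000500). Hif1an, the asparagine hydroxylase that restrains HIF activity, fell from 35.9 ± 3.85 to 30.4 ± 0.704 CPM (edgeR adjusted p = 0.0315). The Hif1an call was lost when TGF-β1 replicate 2, 3 or 4 or hemin replicate 4, 5 or 6 was left out (adjusted p = 0.0507 to 0.0687). It was lost too with the replicate number as a block (edgeR adjusted p = 0.0564). Arnt2, a partner subunit better known from neurons, rose from 0.705 ± 0.324 to 3.72 ± 0.863 CPM (edgeR adjusted p = 1.13e-05).

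Of 42 other HIF targets 3 rose and 5 fell (19.05%, against 14.2% of all tested genes, median log2 fold change -0.12). The lower count was 3 when TGF-β1 replicate 5 or 6 or hemin replicate 2, 4 or 6 was left out, and 9 and 10 with limma on log2(FPKM + 1) and log2(FPKM + 0.1). With the replicate number as a block the lower count was also 3. Vegfa, the angiogenic growth factor, fell from 107 ± 19.7 to 67.8 ± 4.49 CPM, 1.58-fold and without overlap (edgeR adjusted p = 0.000290). The chemokine receptor Cxcr4 rose from 43.9 ± 2.94 to 57.1 ± 5.13 CPM (edgeR adjusted p = 0.000616), and Gbe1, the glycogen branching enzyme, from 23.1 ± 1.66 to 31.7 ± 4.48 CPM (edgeR adjusted p = 0.00169). The lipid droplet gene Hilpda and the chemokine Cxcl12, named after their values were seen, fell by 0.56 and 1.39 on the log2 scale (edgeR adjusted p = 0.00247 and 0.00213).

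In glycogen turnover 3 of 13 genes rose and 1 fell (30.8%, against 14.2% of all tested genes, median log2 fold change 0.02). With limma on FPKM 3 fell. Ugp2, which makes UDP-glucose, rose from 145 ± 7.34 to 179 ± 6.60 CPM (edgeR adjusted p = 0.000208), and Gbe1, which is on both lists, was another riser. The phosphatase targeting subunit Ppp1r3d fell from 9.07 ± 1.46 to 5.06 ± 0.567 CPM (edgeR adjusted p = 0.000216). Ugp2, Gbe1 and Ppp1r3d each separated the groups without overlap. In the serine and glycerol branches 1 of 11 rose, the mitochondrial folate enzyme Mthfd2 (log2 fold change 0.35, edgeR adjusted p = 0.000658), and 1 fell, the serine synthesis enzyme Psat1 (-0.24, edgeR adjusted p = 0.0109). These are 18.2% of that list, whose median was -0.02. The lower count there was 2 without TGF-β1 replicate 6 or with a mean FPKM of at least 5, and 4 with limma on FPKM. With the replicate number as a block it was 0, as the Psat1 call was lost (edgeR adjusted p = 0.0686). Of 14 transcriptional regulators of glycolysis 2 rose and 1 fell (21.4%, against 14.2% of all tested genes, median -0.06). The split turned with the setting, as 3 fell without TGF-β1 replicate 2 and 2 without hemin replicate 3, while limma on log2(FPKM + 1) and log2(FPKM + 0.1) gave 1 higher each and 4 and 5 lower. The mTORC1 activator Rheb rose by 0.31 and the lysosomal regulator Tfeb by 0.28 on the log2 scale (edgeR adjusted p = 0.00321 and 0.00849). The Tfeb call was lost with limma on log2(FPKM + 1) and log2(FPKM + 0.1) (adjusted p = 0.0537 and 0.0526). Mlxipl, the carbohydrate-response factor ChREBP, fell from 3.37 ± 0.713 to 0.463 ± 0.355 CPM, without overlap (edgeR adjusted p = 0.00137).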

How the data were processed

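Poly(A)-selected RNA from 11 libraries was sequenced. The tools named in the submitters' processing notes, without role or order, are HISAT2 2.2.1, cutadapt 1.9, StringTie 2.1.6, DESeq2 and FastQC 0.11.9, with build GRCm39. The deposited table holds whole-number counts per gene, not normalized, and FPKM values calculated by the authors. The counting method, its strand setting and the annotation release: not given in the sources used here.

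Each library took its group from its title's prefix. In R 4.3.3, edgeR 4.0.16 (filterByExpr, minimum count 10, minimum total 15; normalization by TMM; quasi-likelihood F test with treatment as sole term) tested 15132 genes, all 32 members among them. The p-values are 2-sided, adjusted by Benjamini-Hochberg, with a threshold of 0.05. The SE is the log2 fold change over the square root of F. The fit was tested on simulated counts. Totals of 65.5 to 96.6 M counts lie behind the values. Chi-square per degree of freedom between pairs of 1 group was 25.4 to 172, so none was a copy of another.

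The members and lists were chosen with earlier results of these data known. Named genes are all members, with every hemin library and the range and median of the TGF-β1 libraries for those that passed and for the most abundant of each role, and up to 3 called genes per other list; Hilpda, Cxcl12 and Pdk4 were added after their values were seen. The result of 1 called gene of the glycogen list is not reported here. Alternatives were DESeq2 1.42.0, edgeR with its size factors or with upper-quartile factors, all genes without a low-count filter, a mean FPKM of at least 5, the replicate number as a block, limma 3.58.1 on log2(FPKM + 1) and log2(FPKM + 0.1), each library left out, and 2 alternatives added after seeing the data (without the 2 deepest hemin libraries, and replicates 2 to 6 without the block). Promoters are RefSeq windows of build GRCm38.p6; other coordinates are those of the deposited table (GRCm39).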

Additional observations from a re-analysis of the deposited data

Results flagged for a closer look

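In 6 of 64 groups of member values, 1 library stood apart from the rest of its group by Dixon's criterion, which chance meets in about 1 of 20 groups. TGF-β1 replicate 6 was the high library in 4 of the 6, with Hk2 at 108 CPM, Pfkfb3 at 51.5 CPM, Aldoc at 68.1 CPM and Adm at 3.02 CPM. In the hemin group Pfkp was high in replicate 4, at 129.8 CPM, and Ndrg1 was low in replicate 2, at 15.8 CPM. Without TGF-β1 replicate 6, Hk2 and Aldoc kept their calls, and Pfkfb3 and Adm did not pass either way.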

How the results depend on the processing

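Against 3 members higher and 3 lower, limma on log2(FPKM + 1) and on log2(FPKM + 0.1) gave 1 higher and 7 lower each; there the median of all genes moved by -0.06 and -0.10, and the split over all genes was 759 and 744 higher against 2136 and 2133 lower, beside 1276 and 870 in edgeR. DESeq2 gave 4 higher and 5 lower, with 1468 higher and 1223 lower over all genes. No filter on low counts gave 1 lower, as did leaving out the 2 deepest hemin libraries, an alternative chosen after seeing the data. In these 2 settings all genes gave 668 and 565 lower. Leaving out 1 library at a time gave 3 to 5 higher and 1 to 3 lower, beside 1018 to 1247 higher and 686 to 923 lower over all genes. The count of lower members was 1 without TGF-β1 replicate 4 or 6 or hemin replicate 4 or 6, and the members lost were Pfkm and P4ha1. Over all genes these settings gave, in that order, 737, 808, 686 and 708 lower, beside 870 with all libraries. The cause was not tested. Nothing in the labels used here says whether replicate numbers pair the libraries. The correlation of same-numbered deviations ran from -0.085 to 0.109. The same-numbered TGF-β1 library was the best-correlated one for hemin replicates 4 and 6, but not for 2, 3 and 5. Correlations this low cannot settle the pairing. With the replicate block 2 members were higher (Aldoa had an edgeR adjusted p of 0.0635) and 1 was lower. All genes then gave 1543 calls, against 2051 in the same libraries without the block (added after seeing the data) and 2146 in all 11. Pfkp and Hk2 passed in all 21 alternatives, Aldoc in 19, Aldoa in 18, P4ha1 in 11 and Pfkm in 8 of 20. No called value changed sign; 30 of 1241 values of single genes did, all of them called in neither setting. Adm, the member with the fewest counts, had the widest interval, and genes below the filter were not tested.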
